A study of Danio rerio with 15 samples.

Results

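The 147 genes described here are zinc finger genes of the zebrafish whose symbol is znf followed by a number. They were taken by name from a table of 15937 genes measured in sorted neutrophils. The rule uses no measured value, but it was set with earlier results of these data known. Of the 147 genes, 52 have a number of 4 digits, such as znf1179 and znf1028, and 95 have a shorter number. All 147 passed the filter on low values and were tested, among 15933 genes tested in all.

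Most znf genes encode proteins with C2H2 zinc fingers, short loops that are folded around a zinc ion by paired cysteines and histidines and that read DNA or bind RNA. In vertebrates the family has grown by tandem duplication, and many members lie side by side as near-identical copies. Mammalian members often silence transposons through heterochromatin and DNA methylation, while members that are conserved between fish and mammals act in transcription, chromatin complexes, RNA binding and ribosome assembly. Tet2 and Tet3 belong to the Tet enzymes, which oxidise methylated cytosine in DNA as the first step of its active demethylation.

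Embryonic neutrophils were isolated by the reporter mpx:GFP, in which sequence of the myeloperoxidase gene mpx drives a fluorescent protein, and their RNA was sequenced. There are 15 libraries, 3 for each of 5 groups. Homozygous tet2 mutants (tet2-/-), homozygous tet3 mutants (tet3-/-), embryos labelled tet2/3DM, the tet2 and tet3 double mutants, and wildtype embryos were all sampled 2 days after fertilization (2 dpf). Younger wildtype embryos were sampled at 1.5 dpf, 35 hours in the column names of the table. By the design text all 5 groups carry the reporter. The labels name neither the alleles nor the number of embryos pooled, and a sort on mpx:GFP selects by reporter, not by genotype. Nor do they tell if replicate libraries are from different clutches or sorts, so the spread that p-values measure may be technical. Values are normalised read counts per gene. A change is a difference of group means of log2(value + 1), which understates the change of genes with low values. A gene is said to rise or fall where limma's two-sided test, adjusted by Benjamini-Hochberg over 15933 genes, gave an adjusted p under 0.05. The 4 comparisons with wildtype at 2 dpf share the same 3 wildtype libraries. In bulk RNA, fewer cells of a type and less RNA per cell cannot be told apart.

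The libraries held 5.64 to 31.06 M reads, and tet3 mutant replicates 1 and 2 were the shallowest at 5.64 and 5.96 M. The chi-square between these 2 libraries was 3.98 per degree of freedom over genes, against 8.56 to 284.5 in the other pairs of replicates, a measure that grows with depth and so does not rank pairs of unlike depth. Although 3.98 is above sampling noise, it does not tell if these 2 libraries came from 1 pool of cells or RNA. They were counted as 2 samples, and counts in tet3 mutants are also given with the deepest tet3 library alone. The neutrophil genes mpx, lyz and npsn were high in every library, between 21430 and 198700 normalised reads, and passed in no comparison with wildtype at 2 dpf. The summed level of 13 neutrophil genes was 223800 to 283200 in wildtype at 2 dpf and 196000 to 549200 at 1.5 dpf. It was 149200 to 379600 in tet2 mutants, 231900 to 266900 in tet3 mutants and 179900 to 224800 in double mutants. Their median log2 change at 1.5 dpf was 0.78. Against wildtype at 2 dpf, 2 of them rose at 1.5 dpf (9.18% of all genes tested rose), and none passed in a mutant. tet2 and tet3 mRNA passed in no mutant either, which checks nothing about the mutant alleles. The groups also differed in transcripts of 11 heat shock genes. Their summed level was 1379000 to 1499000 in wildtype at 2 dpf, 1008000 to 1760000 in tet2 mutants, 230800 to 256600 in tet3 mutants, 190200 to 774300 in double mutants and 126500 to 173000 in wildtype at 1.5 dpf. Markers of other cells differed too. The summed level of 15 macrophage markers was 63710 to 72840 in wildtype at 2 dpf and 44220 to 70140 at 1.5 dpf. It was 27210 to 66730 in tet2 mutants, 65120 to 68010 in tet3 mutants and 44490 to 63490 in double mutants. Against wildtype at 2 dpf, 1 of them rose and 6 fell in double mutants, where 3.41% of all genes rose and 5.27% fell. The summed level of 10 erythroid markers was 118400 to 123300 in wildtype at 1.5 dpf and 3375 to 6167 at 2 dpf. That of 20 endothelial markers was 3957 to 4530 in double mutants and 10570 to 11260 in wildtype at 2 dpf. In wildtype at 1.5 dpf it was 10900 to 15410, in tet2 mutants 7020 to 16050 and in tet3 mutants 10640 to 14800. The sum of 12 epidermal markers was 43570 to 52410 in wildtype at 2 dpf. In tet3 mutant replicates 1, 2 and 3 it was 76450, 77690 and 94190. It reached 110400 in tet2 mutant replicate 1, where the sum of 15 neural markers was also highest at 45270. Wildtype at 2 dpf had a sum of 14 muscle markers of 15840 to 18090, and tet3 mutant replicates 1, 2 and 3 had 1881, 1891 and 7774. The same sum was 37900 in double mutant replicate 1 and 1705 and 1856 in the other 2. The sum of 12 pigment cell and neural crest markers was 1381 to 1616 in wildtype at 2 dpf, 1321 to 5617 in tet2 mutants, 4543 to 5641 in tet3 mutants, 6667 to 11450 in double mutants and 6596 to 7212 at 1.5 dpf. The part of these differences in the results below was not tested unless a value is given beside the result.

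The shorter and the 4-digit members differ in how well they were measured. Taking each member's median over the libraries, the middle shorter member had 324 reads, within a range of 18 to 1599, and 20 of 95 were under 100 reads. The middle 4-digit member had 41.5 reads, within 16 to 1965, and 44 of 52 were under 100 reads. The standard error of a log2 change between 2 groups was accordingly larger, with a median of 0.59 for 4-digit members, 0.29 for shorter ones and 0.32 for all genes tested. A human counterpart was listed in the deposited table for 91 of 95 shorter members and for 6 of 52 4-digit members. The names are not stable. Of 137 members found by identifier in a gene name table, 66 carry the same name there. The symbols znf1015 (3 identifiers), znf1028, znf1124 and znf1144 (2 each) belong to more than 1 row, and reads of such copies may be split between them, so values of 4-digit members are uncertain in this respect.

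znf1179 (ENSDARG00000104613) was higher in neutrophils of every mutant group than in both wildtype groups. Its normalised read counts were 21.2, 32.7 and 15.4 in wildtype at 2 dpf and 67.3, 57.3 and 63.4 in wildtype at 1.5 dpf. The tet2 mutants had 156, 152 and 322, the tet3 mutants 317, 451 and 399, and the double mutants 220.5, 335 and 139.8. The lowest mutant library, a double mutant, lay above the highest wildtype library, from 1.5 dpf, so the 9 mutant and 6 wildtype libraries did not overlap. Behind these values stand 13 to 29 reads in wildtype at 2 dpf and 120 to 591 reads in the mutants. Against wildtype at 2 dpf the log2 change was 3.10 in tet2 mutants (SE 0.38, adjusted p = 0.0021 by limma), 4.06 in tet3 mutants (adjusted p = 8.0e-05) and 3.25 in double mutants (adjusted p = 8.0e-05). Each of these 3 calls held when any 1 library of the groups compared was left out. The call in tet2 mutants did not hold when only those 2 groups entered the fit (adjusted p = 0.15).

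The level of znf1179 also differed between the wildtype ages. It was higher at 1.5 dpf than at 2 dpf (log2 change 1.46, adjusted p = 0.013 by limma), a call that did not hold without wildtype 2 dpf replicate 3. Against wildtype at 1.5 dpf it was still higher in tet3 mutants (2.60, adjusted p = 0.00058) and in double mutants (1.78, adjusted p = 0.0061). The first of these did not pass with the deepest tet3 library alone (adjusted p = 0.058), and the second did not pass with hsp70l as a covariate (adjusted p = 0.073). By group mean the order was wildtype at 2 dpf (23.1 ± 8.8, SD, n = 3), wildtype at 1.5 dpf (62.7 ± 5.0), tet2 mutants (209.9 ± 97), double mutants (232 ± 98) and tet3 mutants (389 ± 68). Neighbours among the 3 mutant groups in this order did not pass. Double mutants differed from tet2 mutants by 0.14 (adjusted p = 0.91 by limma). They differed from tet3 mutants by -0.82 (SE 0.38, unadjusted p = 0.047, adjusted p = 0.31 by limma), with libraries that overlapped. The change in double mutants was less than the sum of the changes in the single mutants, with an interaction of -3.92 on the log2 scale (SE 0.54, adjusted p = 0.0035 by limma), and this held in each of 12 fits that left out 1 library. With tet3 mutants represented by their deepest library alone, the interaction did not pass (adjusted p = 0.19). With the log2 level of hsp70l, a heat shock gene, as a covariate, znf1179 was still called in tet2 mutants (3.14), tet3 mutants (4.71) and double mutants (3.76), and not at 1.5 dpf. hsp70l barely varied among the tet3 libraries (17120 to 17790), far under the 367900 to 426500 of wildtype at 2 dpf. Double mutant libraries (5505 to 156500) did not reach wildtype either. For both groups the covariate follows genotype, so this fit cannot tell heat shock from genotype and nothing is read from it.

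**Figure D1:**
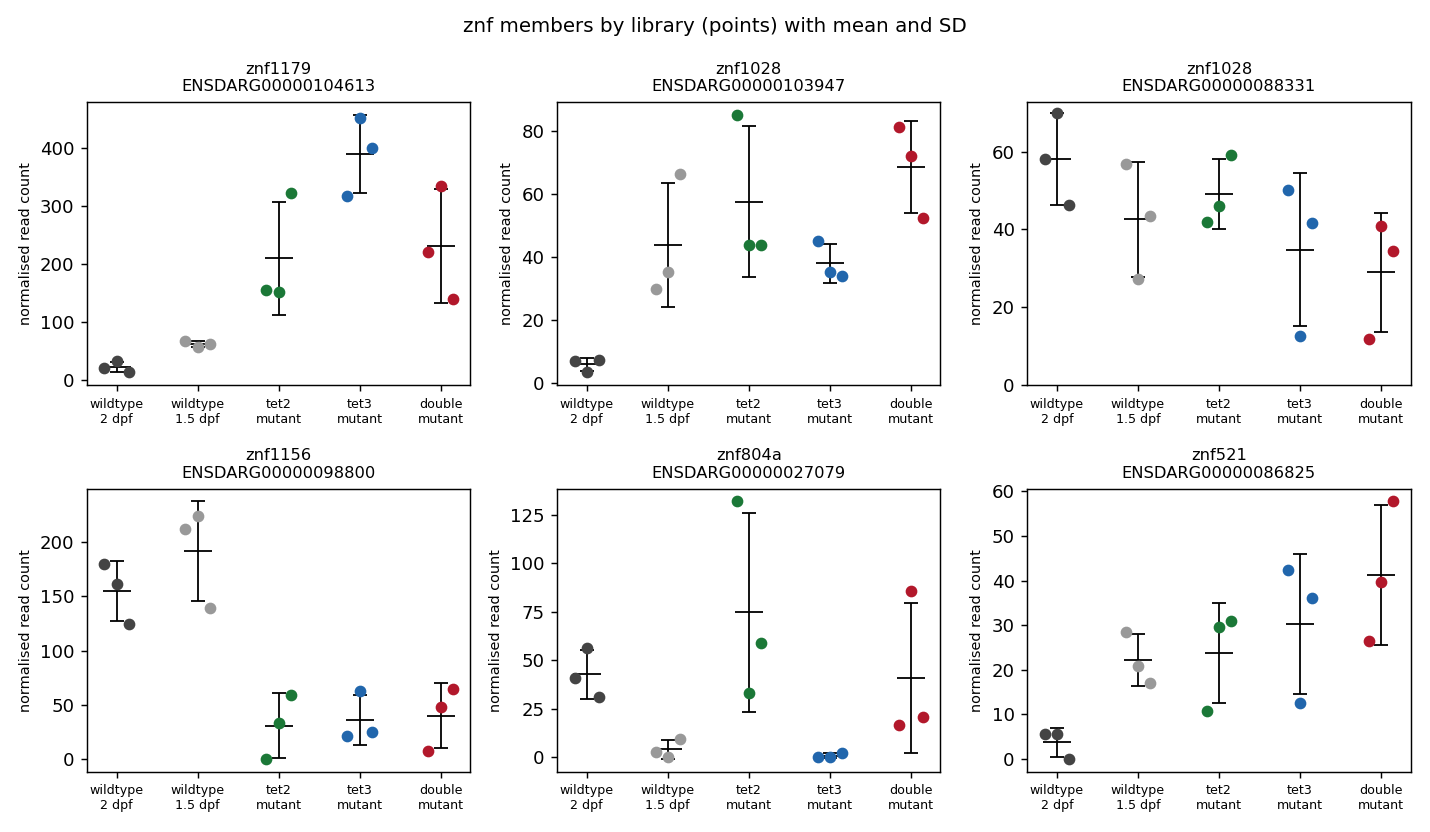
Normalised read counts (y axis, linear, scaled per panel) of 6 znf rows in the 5 groups; points are libraries, and bars are mean ± SD over 3 libraries. The 9 mutant libraries of znf1179 (139.8 to 451) lie above the 6 wildtype ones (15.4 to 67.3), and those of znf1156 (0 to 64.6) below them (125 to 224).

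znf1028 was measured as a pair of rows, of which 1 was called and the other was not. The row ENSDARG00000103947 had 7.07, 3.38 and 7.12 normalised reads in wildtype at 2 dpf, from 3 to 6 reads per library. It had 29.7, 35.2 and 66.3 in wildtype at 1.5 dpf, 85.2, 43.7 and 43.7 in tet2 mutants, 44.9, 35.1 and 33.8 in tet3 mutants, and 81.3, 72.0 and 52.4 in double mutants. The 3 libraries of wildtype at 2 dpf were the lowest of the 15, and the other 4 groups overlapped in part. This row rose in tet2 mutants (log2 change 3.08, adjusted p = 0.020 by limma), tet3 mutants (2.55, adjusted p = 0.0072), double mutants (3.38, adjusted p = 0.00056) and wildtype at 1.5 dpf (2.67, adjusted p = 0.0018). In tet2 mutants the call held in 1 of 6 fits that left out a library, and it was lost without any wildtype replicate and without tet2 replicates 1 or 2. In the other 3 comparisons it held in each of 6 fits.

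The other znf1028 row, ENSDARG00000088331, had 58.0, 69.9 and 46.3 normalised reads in wildtype at 2 dpf, 56.9, 27.3 and 43.6 at 1.5 dpf, 42.0, 46.1 and 59.2 in tet2 mutants, 50.2, 12.5 and 41.7 in tet3 mutants, and 11.8, 40.8 and 34.4 in double mutants. It passed in no comparison. Summed over both rows, the symbol passed in no comparison either: the log2 change was 0.73 in tet2 mutants (adjusted p = 0.79 by limma), 0.14 in tet3 mutants (0.85), 0.61 in double mutants (0.31) and 0.40 at 1.5 dpf (0.43). The rise of the symbol znf1028 thus rests on 1 of its 2 rows. The sources used here do not say how reads that match both copies were counted.

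znf1156 (ENSDARG00000098800) was the one other member whose 9 mutant and 6 wildtype libraries did not overlap. It was singled out after its values were seen. Its normalised read counts were 179.5, 161 and 125 in wildtype at 2 dpf and 212, 224 and 139 at 1.5 dpf. They were 0, 33.1 and 59.2 in tet2 mutants, 21.1, 62.7 and 24.8 in tet3 mutants, and 6.86, 48.2 and 64.6 in double mutants. Every mutant library lay below every wildtype one, and the mutant libraries of each group varied widely. No comparison passed: the log2 change was -3.60 in tet2 mutants (adjusted p = 0.54 by limma), -2.22 in tet3 mutants (0.27) and -2.39 in double mutants (0.23). Over all genes tested, 35 genes (0.22%) were higher in each of the 9 mutant libraries than in each of the 6 wildtype ones, and 28 (0.176%) were lower.

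znf1179 and znf1156 lie close together, as many 4-digit members do. Of 32 4-digit members placed, 21 had another znf gene within 5 annotated genes on either side. As znf1156 was picked after its values were seen, nothing is read from this nearness. In the RefSeq annotation of the assembly GRCz12tu, used for neighbours alone since the build of the deposited table is not given in the sources used here, znf1156 is the 11th annotated gene from znf1179. Within 40 annotated genes on either side, 13 znf members were measured. Of the 12 znf members there other than znf1179, none passed in a mutant against wildtype at 2 dpf. The background over all genes tested was 0.1%, 7.27% and 8.68% called for the tet2, tet3 and double mutant comparisons. With so few members, a count of none is near that background, so nothing particular to these 12 members is read from it. The nearest, znf1169, is the next annotated gene and had 53.7, 59.7 and 52.2 normalised reads in wildtype at 2 dpf and 18.5, 10.03 and 27.0 in tet3 mutants (log2 change -1.63, adjusted p = 0.062 by limma). In tet2 mutants it changed by -0.52 and in double mutants by -0.09. znf1159, 4 genes away, changed by 0.57, -1.40 and -0.08 in tet2, tet3 and double mutants, and znf1002, 2 genes away, by -0.13, -1.71 and -0.17, and none of these passed. znf45l, 28 genes away, fell at 1.5 dpf (-2.11, adjusted p = 0.0499 by limma). No member lies within 100 annotated genes of tet2 or tet3, of 126 members placed. Of the 4-digit members 61.5% could be placed, so a comparison of neighbourhoods over the whole set is void.

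**Figure D2:**
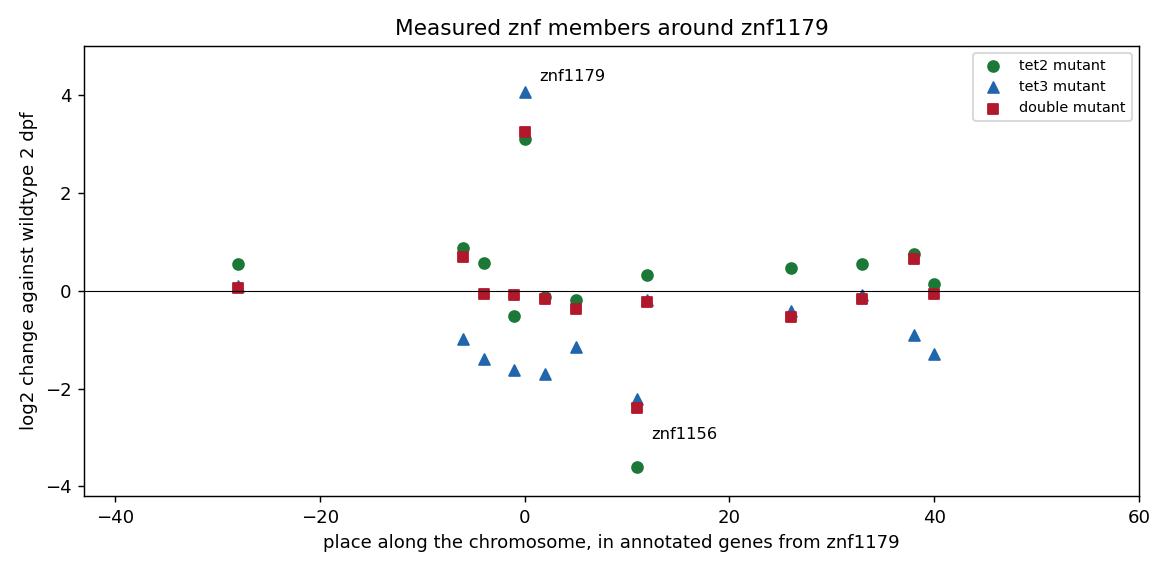
Log2 change against wildtype at 2 dpf (y axis) of 13 znf members measured within 40 annotated genes of znf1179 (x axis, gene order, not distance); colour and shape give the mutant group. znf1179 stands at 3.10, 4.06 and 3.25, znf1156 at -3.60, -2.22 and -2.39, and the other znf members between -1.71 and 0.88.

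In tet2 mutants few genes of any kind were called. Against wildtype 0.1% of all genes tested passed, 0.0314% higher and 0.069% lower, and among the znf genes 2 of 147 rose and none fell. The 2 are znf1179 and the called row of znf1028, both with 4-digit names. The rule that chose these genes names both symbols and was set with earlier results of these data known. Their count beside the background was thus fixed in part beforehand, and nothing is read from it or from their 4-digit names. The members nearest to the threshold were znf521, at 10.8, 29.5 and 30.9 normalised reads against 5.66, 5.63 and 0 in wildtype (log2 change 2.67, adjusted p = 0.47 by limma), and znf513, at 254, 236 and 166 against 146, 113 and 131 (0.73, adjusted p = 0.54). In both genes every tet2 mutant library lay above every wildtype library. The share of all genes that lie apart in this way was not counted, so nothing is read from this.

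In tet3 mutants 5 znf members rose and 7 fell. That is 8.16% of the 147 against 7.27% of all genes tested, of which 3.69% rose and 3.58% fell, so the share is near the background. Among 4-digit members 2 rose and 3 fell, and among shorter ones 3 rose and 4 fell. In none of the 12 calls did the libraries of the 2 groups overlap. A call already favours groups that lie apart, and the share over all genes called was not counted, so nothing is read from this. When 1 library was left out, 3 to 6 members were called, as were 382 to 749 of all genes, and znf1179, znf1028 and znf804a were called each time. With only these 2 groups in the fit 30 members were called, 7 higher and 23 lower, as were 3912 of 15933 genes. With the deepest tet3 library alone 1 member was called, znf1179 (adjusted p = 0.023).

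Among the shorter members with a known role, the largest fall in tet3 mutants was that of znf804a, a gene known from human neurons and brain. It had 41.0, 56.3 and 30.9 normalised reads in wildtype at 2 dpf and 0, 0 and 2.25 in tet3 mutants. The tet2 mutants had 132, 33.1 and 59.2 and the double mutants 16.7, 85.6 and 20.7, while wildtype at 1.5 dpf had 2.59, 0 and 9.47. The tet3 mutants and wildtype at 1.5 dpf lay below the other 3 groups without overlap. The log2 change in tet3 mutants was -4.84 (SE 0.97, adjusted p = 0.0083 by limma), and it depends on the pseudocount, since 2 reads stand behind the tet3 mutants and 105 behind wildtype. The ratio of summed reads, wildtype over tet3 mutants, was 35.9 with an exact 95% interval of 9.69 to 300.1 that covers counting error only. The fall did not pass with the deepest tet3 library alone. Nor did it pass with the hsp70l covariate, where 21 genes passed in all. That covariate follows genotype in tet3 mutants, so nothing is read from its fit.

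znf148, known in mammals as a regulator of blood and other cell types, fell in tet3 mutants from 597, 668 and 546 normalised reads to 280, 283 and 253 (log2 change -1.14, adjusted p = 0.028 by limma). Its 3 tet3 libraries lay close together and far below wildtype, yet the call was lost whichever library was left out. It was 237, 569.5 and 381 in double mutants, where it did not pass. znf521, a regulator of blood progenitors in mammals, rose from 5.66, 5.63 and 0 to 42.3, 12.5 and 36.03 (2.98, adjusted p = 0.036). It was low in wildtype at 2 dpf alone, where 4, 5 and 0 reads stand behind it and its fold depends on the pseudocount; the other 4 groups ran from 10.8 to 57.7. znf346, which binds double-stranded RNA in mammals, rose from 771, 828 and 806 to 1334, 1156 and 1304 (0.66, adjusted p = 0.044). znf395b fell from 66.4, 39.4 and 64.1 to 31.7, 2.51 and 7.88 (-2.48, adjusted p = 0.045), and znf710b rose from 515, 439.5 and 445 to 647, 719.6 and 745 (0.59, adjusted p = 0.048). The calls of znf346 and znf710b were also lost whichever library was left out, and those of znf521 and znf395b held in 1 of 6 such fits. On recovered reads edgeR called neither znf395b nor znf710b.

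The 4-digit members that fell in tet3 mutants were znf1010, znf1011 and znf1060, and the shorter znf983 fell as well; no role was assigned to any of them. znf1010 went from 172.5, 118 and 147 normalised reads in wildtype to 63.4, 72.7 and 69.8 in tet3 mutants (log2 change -1.06, adjusted p = 0.025 by limma). It was lower in tet3 mutants than in any other group. znf1011 went from 60.8, 71.0 and 35.6 to 5.28, 7.52 and 25.9 (-2.27, adjusted p = 0.045), and znf1060 from 45.2, 44.0 and 32.1 to 2.64, 0 and 23.7 (-3.19, adjusted p = 0.031). In both the deepest tet3 library was the highest of the 3. For znf1060, 1, 0 and 21 reads stand behind the tet3 mutants, so its fold depends on the pseudocount. On recovered reads znf1060 was called by neither edgeR nor DESeq2, and znf1011 was not called by edgeR. znf983 went from 169.6, 154 and 154 to 31.7, 35.1 and 32.7 (-2.23, adjusted p = 0.016). Each of these 4 calls held in 1 of 6 fits that left out a library.

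In double mutants 4 znf members rose and 1 fell, 3.4% of 147 against 8.68% of all genes tested, of which 3.41% rose and 5.27% fell. znf1179 and the row of znf1028 were the 4-digit ones. znf521 rose to 26.5, 39.7 and 57.7 normalised reads from 5.66, 5.63 and 0 (log2 change 3.51, adjusted p = 0.013 by limma), and znf513 rose to 274, 279 and 261 from 146, 113 and 131 (1.07, adjusted p = 0.010). The double mutants were the highest of the 5 groups in znf513, and their 3 libraries differed little. znf513 was called in 5 of 6 fits that left out a library, failing without wildtype replicate 2, and znf521 in 4 of 6. znf296 fell from 619, 728 and 639 to 326, 325 and 382 (-0.94, adjusted p = 0.034), and was called in none of the 6. znf346 missed the threshold by little, at 1210, 1274 and 1207 against 771, 828 and 806 (0.62, adjusted p = 0.0501). When 1 library was left out, 3 to 9 members were called, as were 688 to 1673 of all genes. DESeq2 on the recovered reads called 8 members and 2093 genes in all. With the hsp70l covariate 1 znf member was called here, among 159 genes, and 1 in tet3 mutants, among 21 genes, znf1179 in both. As hsp70l set both groups apart from wildtype without overlap, these counts do not tell heat shock from genotype.

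**Figure D3:**
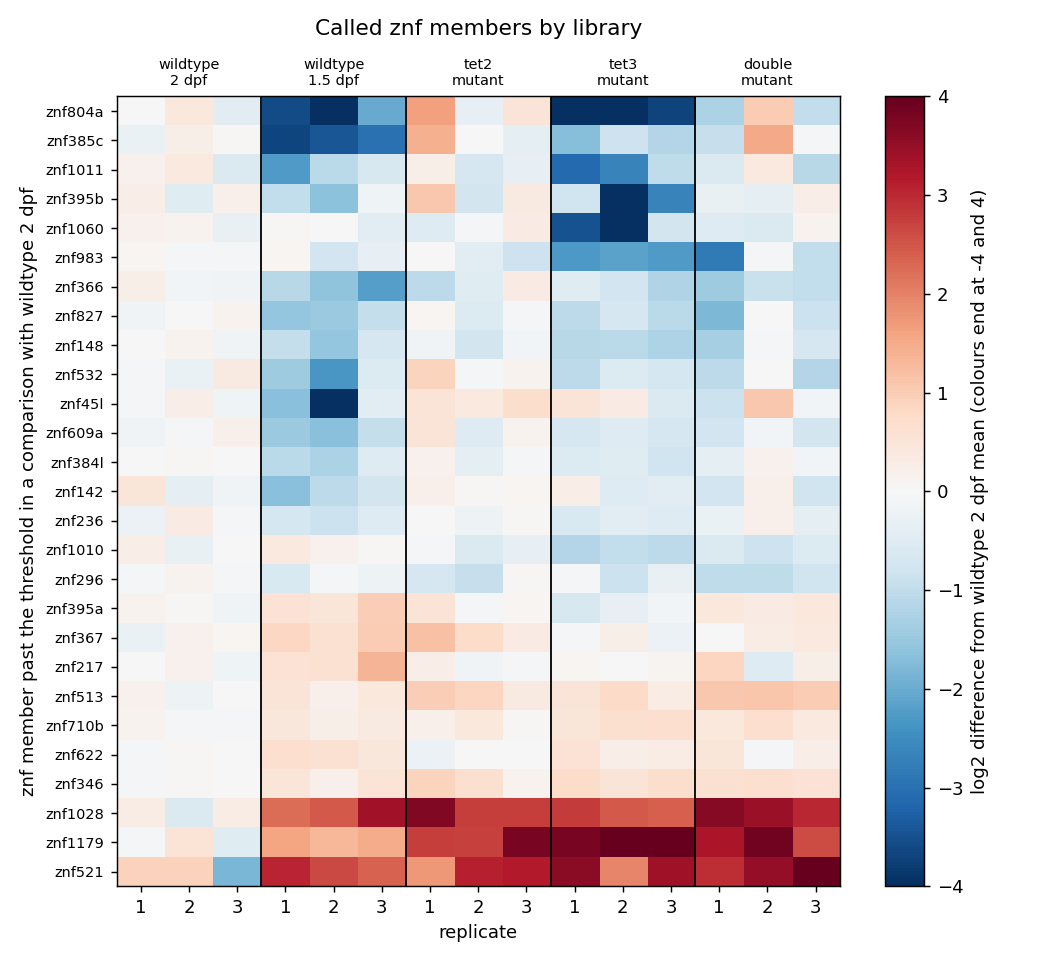
Difference of each library from the wildtype mean at 2 dpf on the log2(value + 1) scale (colour, ending at -4 and 4) for the znf members that passed in at least 1 of the 4 comparisons with wildtype at 2 dpf; columns are replicates 1 to 3 of each group. The rows of znf1028, znf1179 and znf521 are red in all 4 other groups, and znf804a is blue in wildtype at 1.5 dpf and tet3 mutants.

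Most 4-digit members had lower means in tet3 mutants than in wildtype, although few passed singly. The 3 tet3 libraries also lay apart from wildtype at 2 dpf in summed heat shock transcripts and muscle markers, which were lower, and in summed epidermal and pigment cell markers, which were higher, and the part of these in the shift was not tested. Of the 52, 43 had a log2 change below 0 and the median was -0.63, within quartiles of -1.18 and -0.26. The 95 shorter members had a median of -0.11, and all genes tested had -0.04 with 53.1% below 0. The shift was present in each library: against the mean of wildtype at 2 dpf, the median 4-digit member was at -0.64, -0.42 and -0.64 in tet3 mutant replicates 1, 2 and 3. The wildtype libraries themselves were at -0.05, 0.13 and -0.05. On reads thinned to 5.64 M in each library the median was -0.54, with the deepest tet3 library alone it was -0.64, and after quantile normalization -0.44. Summed over the 4-digit members without znf1035, the most abundant, the level was 3640, 4008 and 3932 in wildtype and 2988, 3290 and 2860 in tet3 mutants, which did not overlap. The share of 4-digit members called, 9.62%, was near the background of 7.27%. Members of 1 set that share reads or neighbours are not independent, so no test is given for the set.

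In double mutants the 4-digit members were at a median of -0.27, and 41 of 52 were below 0, beside -0.07 for shorter members and 0.01 for all genes tested. Here the libraries differed among themselves, at -0.58, 0.04 and -0.28. Without single libraries the median ranged from -0.49 to -0.14. The sum without znf1035 was 2361, 4145 and 3029, which overlapped wildtype. znf1035 itself had 2778, 2859 and 3083 normalised reads in wildtype at 2 dpf and 376, 3329 and 1987 in double mutants. In tet2 mutants the 4-digit and shorter members had medians of 0.17 and 0.14, beside -0.00 for all genes tested. Library by library the 4-digit median was 0.45, 0.13 and 0.05, the highest in replicate 1, the library with the highest sums of neural and epidermal markers. In wildtype at 1.5 dpf the 4-digit median was 0.18 and the shorter one -0.03. The 4-digit median was 0.57 after quantile normalization and 0.03 to 0.23 when 1 library was left out, and the libraries of this group were at 0.16, -0.20 and 0.44 for 4-digit members.

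**Figure D4:**
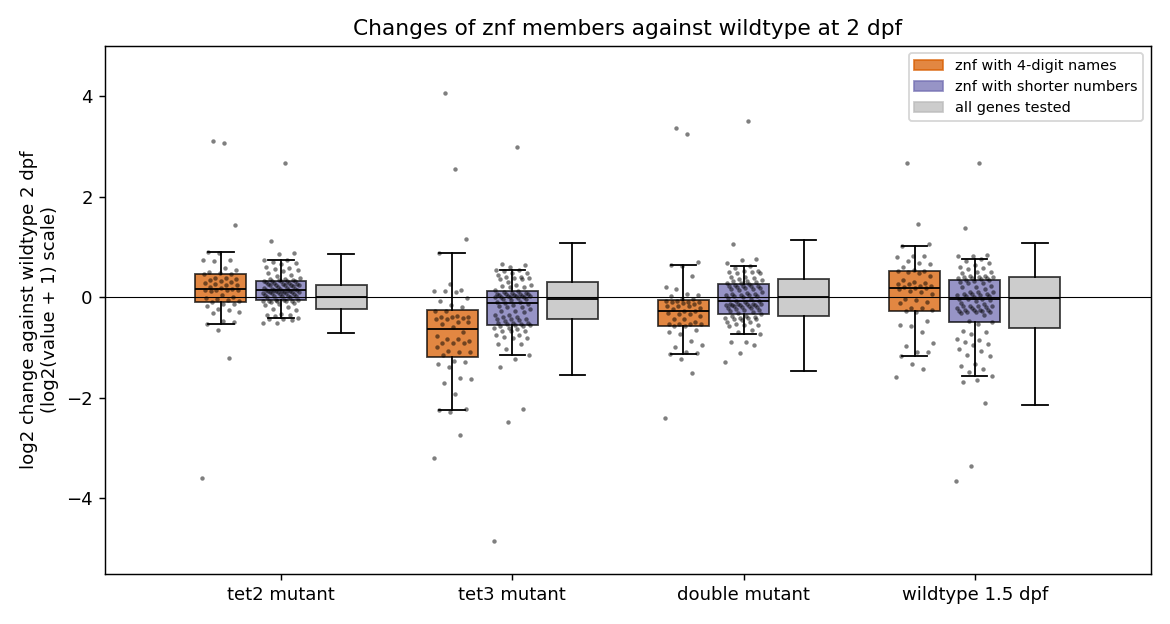
Log2 change against wildtype at 2 dpf (y axis) of 52 4-digit members, 95 shorter members and all 15933 genes tested in 4 comparisons; points are members, boxes the quartiles and median, and whiskers the 5th and 95th percentiles. In tet3 mutants the 4-digit box is centred at -0.63, below the shorter one at -0.11 and all genes at -0.04.

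**Figure D5:**
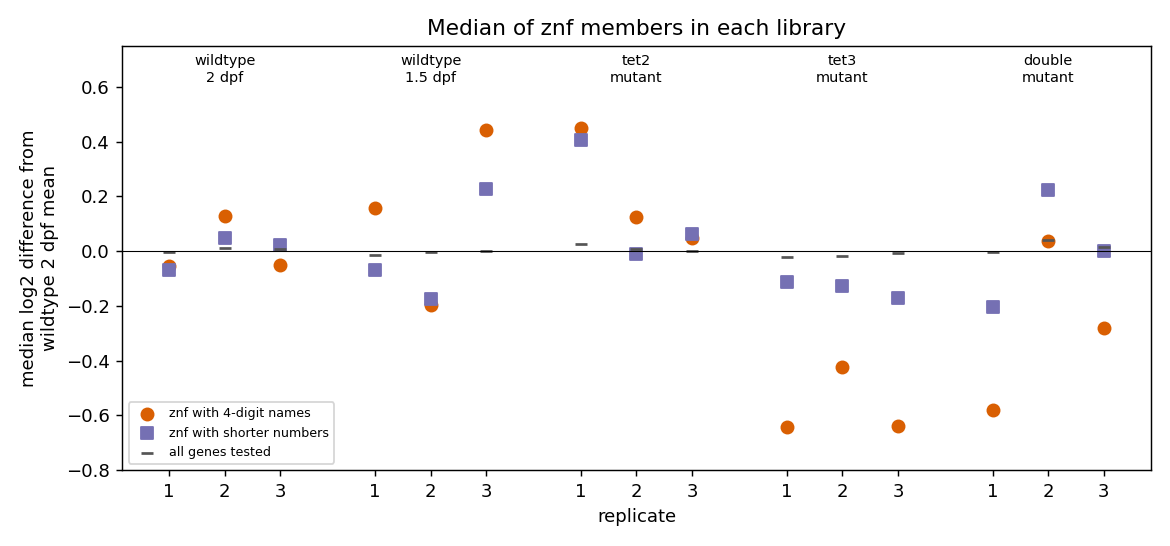
Median log2 difference from the wildtype mean at 2 dpf (y axis) over 4-digit members, shorter members and all genes tested, for each of the 15 libraries (x axis, replicates by group). The 3 tet3 mutant libraries have 4-digit medians of -0.64, -0.42 and -0.64, while the double mutant libraries spread from -0.58 to 0.04.

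The 4-digit members were also uneven among the tet3 libraries. In 16 of 52 the highest tet3 library exceeded the lowest by more than 4-fold after adding 1 to each value, or 30.8%, against 4.21% of shorter members and 5.84% of all genes tested. In wildtype at 2 dpf these shares were 3.85, 3.16 and 2.67%. At 1.5 dpf they were 11.5, 8.42 and 7.14%, in tet2 mutants 3.85, 1.05 and 9.7%, and in double mutants 13.5, 9.47 and 7.78%. The 4-digit members have fewer reads than the other sets, and low counts widen such a range. The part of read depth in these shares was not tested. znf1002 and znf1041 were at 0 in tet3 replicate 1, and znf1060 and the row ENSDARG00000103827 of znf1144 in replicate 2, the 2 shallow libraries, where a count of 0 allows up to 3 reads, or 7.93 and 7.52 normalised reads.

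Between the wildtype ages 16.8% of the shorter members and 3.85% of the 4-digit members, which have larger standard errors, were called. Both shares are below that of all genes. At 1.5 dpf 7 members were higher and 11 lower than at 2 dpf, 12.2% of 147 against 20.8% of all genes tested, 9.18% higher and 11.6% lower. Of the shorter members 5 rose and 11 fell, and the only 4-digit calls were rises of znf1179 and the row of znf1028. When 1 library was left out, 8 to 21 members were called, as were 1845 to 3316 of all genes. With the hsp70l covariate none was called by limma, with 41 calls over all genes, and the changes of znf148, znf217 and znf827 took the other sign. hsp70l itself fell at 1.5 dpf by 5.79 on the log2 scale, and the 2 wildtype ages did not overlap in it.

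The counts by role that follow, in groups of 2 to 13 members, stand beside 9.18% of all genes higher and 11.6% lower at 1.5 dpf, and nothing particular to a role is read from them. Of 13 shorter members in corepressor and chromatin complexes, 1 rose and 3 fell at 1.5 dpf. znf609a, whose human counterpart binds the cohesin loader, fell from 1703, 1837 and 2168 normalised reads at 2 dpf to 680.2, 591 and 972 (log2 change -1.37, adjusted p = 0.0017 by limma). znf827, which recruits a histone deacetylase complex in human cells, fell from 2163, 2428 and 2611 to 819, 863 and 1236 (-1.32, adjusted p = 0.010), and znf532 from 169.6, 149 and 233 to 67.3, 35.2 and 123 (-1.43, adjusted p = 0.027). znf217, a partner of histone demethylase complexes in human cells, rose from 568, 631 and 494 to 838, 857 and 1432 (0.84, adjusted p = 0.046). znf609a and znf827 were called in each of 6 fits that left out a library, znf532 in 1 and znf217 in none.

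Of 5 shorter members with a role in blood and immune cells, 1 rose and 3 fell at 1.5 dpf, where 20.8% of all genes passed. znf366, a corepressor gene of dendritic cells in mammals, fell from 206, 162 and 157 to 80.2, 56.0 and 36.9 (log2 change -1.64, adjusted p = 0.0069 by limma). Its values in double mutants, 63.7, 92.9 and 86.9, were also below wildtype at 2 dpf without overlap but did not pass (-1.11, adjusted p = 0.085). How many of all genes lie apart in this way was not counted. znf384l fell from 999.5, 1047 and 1007 to 481, 420.5 and 719 (-0.95, adjusted p = 0.0063), and znf148 from 597, 668 and 546 to 309, 204 and 376 (-1.06, adjusted p = 0.019). znf521 rose to 28.5, 20.8 and 17.0 (2.68, adjusted p = 0.029). znf341, a regulator of STAT3 in human lymphocytes, did not pass in any comparison with wildtype at 2 dpf, with changes between -0.44 and -0.09.

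Of 6 members that bind RNA, 1 fell at 1.5 dpf. znf385c had 161, 224 and 197 normalised reads in wildtype at 2 dpf and 14.2, 16.9 and 23.7 at 1.5 dpf. It had 521, 191 and 150.5 in tet2 mutants, 58.1, 108 and 85.6 in tet3 mutants, and 101, 546 and 185 in double mutants. The 1.5 dpf libraries lay below all others, and the tet3 mutants lay below wildtype at 2 dpf. The fall at 1.5 dpf was -3.36 on the log2 scale (adjusted p = 0.00057 by limma) and held in each of 6 fits. In tet3 mutants it did not pass (-1.23, adjusted p = 0.18). Its relatives znf385a and znf385b changed by -1.48 and -0.25 at 1.5 dpf and did not pass.

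Of 3 members in ribosome assembly and translation quality control, znf622, which helps to mature the large ribosomal subunit, rose at 1.5 dpf from 509, 549.9 and 543 to 854, 816 and 739 (log2 change 0.59, adjusted p = 0.033 by limma). znf598, a sensor of collided ribosomes, and znf593 changed by 0.40 and 0.49 and did not pass. The spindle genes znf207a and znf207b and the promoter activators znf143a, znf143b and znf76 passed in none of the 4 comparisons with wildtype at 2 dpf, with changes between -0.47 and 0.33. Of the 5 members of neural and other development, 1 fell: znf804a, with a log2 change of -3.67 (adjusted p = 0.015). The other calls at 1.5 dpf were rises of znf367 (0.82) and znf395a (0.68) and falls of znf236 (-0.69), znf142 (-1.16) and znf45l (-2.11), with adjusted p of 0.027 to 0.0499.

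Double mutants were set against each single mutant, and tet2 and tet3 mutants were not compared with each other here. Between double and tet2 mutants no member passed by limma, where 4.45% of all genes did, 1.66% higher and 2.79% lower. At an unadjusted p under 0.05 there were 12, or 8.16%, against 17.9% of all genes. edgeR called 0 members and 714 genes in all, and DESeq2 called 1 member and 1316 genes in all. Between double and tet3 mutants 1 member was called, 0.68% of 147 against 2.33% of all genes, 0.609% higher and 1.73% lower. That was znf804a, at 16.7, 85.6 and 20.7 normalised reads in double mutants against 0, 0 and 2.25 (log2 change 4.44, adjusted p = 0.023 by limma). The ratio of summed reads was 32.8, with an exact 95% interval of 8.96 to 272 for counting error. The call held in 2 of 6 fits, and was lost without tet3 replicates 1 or 2 or double mutant replicates 2 or 3. The interaction of the 2 mutations passed in 1 member, znf1179, and in 0.333% of all genes tested, 0.0439% higher and 0.289% lower.

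Against wildtype at 1.5 dpf, the mutants at 2 dpf differed in age as well as genotype, and the 2 cannot be told apart. In tet3 mutants 2 members were higher and 12 lower, 9.52% of 147 against 9.91% of all genes, 6.13% higher and 3.78% lower. Of the 12 that were lower 6 had 4-digit names, among them znf1010, at 63.4, 72.7 and 69.8 normalised reads against 187.5, 161 and 150.5 (log2 change -1.26, adjusted p = 0.0075 by limma), and znf1067 (-1.11, adjusted p = 0.023). The shorter znf395a, a gene linked to hypoxia in human cells, was at 351, 441 and 508 against 817, 775 and 1090 (-1.04, adjusted p = 0.0054), and znf576.2 at 293, 323 and 363 against 732, 651 and 1026 (-1.27, adjusted p = 0.0067). The 2 that were higher were znf1179 and znf385c (2.12, adjusted p = 0.020). znf1010, znf395a and znf576.2 were called in each of 6 fits, and no member was called with the deepest tet3 library alone.

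In double mutants 7 members were higher and 4 lower than at 1.5 dpf, 7.48% of 147 against 14.2% of all genes, 7.78% higher and 6.39% lower. znf385c was higher by 3.53 on the log2 scale (adjusted p = 0.00063 by limma) and znf384l, at 795, 1150 and 942 against 481, 420.5 and 719, by 0.85 (adjusted p = 0.016). znf804a was higher too (3.26, adjusted p = 0.035). znf1067 was lower (-1.02, adjusted p = 0.027), as were znf1010 (-0.86, adjusted p = 0.043) and znf800b (-0.92, adjusted p = 0.036). znf385c and znf1179 were called in each of 6 fits and the other named members in 0 to 3. DESeq2 called 23 members here and 3183 genes in all.

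Other zinc finger genes in the table, and the enzymes that act on DNA methylation and heterochromatin, were counted in the same fits, where 0.1% of all genes passed in tet2 mutants, 7.27% in tet3 mutants, 8.68% in double mutants and 20.8% at 1.5 dpf. Of 34 zbtb genes, which join zinc fingers to a BTB domain, 0 passed in tet2 mutants, 2 rose and 2 fell in tet3 mutants, 4 rose and 1 fell in double mutants, and 6 rose and 5 fell at 1.5 dpf. zbtb17, which encodes a partner of Myc, rose from a mean of 332 to 1292 in tet3 mutants (adjusted p = 0.00075 by limma) and to 1023 in double mutants (adjusted p = 0.0016). zbtb11 rose in both as well (0.81 and 1.09). Of 19 Kruppel-like factors 3 rose and 2 fell in tet3 mutants, 4 fell in double mutants, and 5 rose and 4 fell at 1.5 dpf. klf1 and klf17, which act in red blood cells, rose at 1.5 dpf by 3.97 and 5.29 together with the erythroid markers, of which 10 of 10 rose. klf2a and klf2b, known from endothelium under flow, fell in double mutants by 1.65 and 1.92 together with the endothelial markers, of which 10 of 20 fell. The 4 zfp genes passed in none of the 4 comparisons, and 3 of 6 genes with upper case ZNF names fell at 1.5 dpf.

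Of 28 genes of heterochromatin and zinc finger corepressors, none passed in tet2 or tet3 mutants, and 1, the histone methyltransferase gene ehmt2, rose in double mutants (log2 change 0.67, adjusted p = 0.036 by limma). At 1.5 dpf 7 rose, among them chaf1a, chaf1b and daxx, which encode histone chaperones. Of 18 genes of DNA methylation and demethylation, none passed in any mutant, and 3 rose and 1 fell at 1.5 dpf. dnmt1, the maintenance methyltransferase gene, rose there from a mean of 2033 to 3826 (0.88, adjusted p = 0.0035). Of 16 cell cycle genes 13 rose at 1.5 dpf and none passed in a mutant.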

How the data were processed

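RNA was isolated from sorted cells with the RNeasy micro kit and made into libraries with the TruSeq RNA kit v2, per the labels' protocols. This kit does not keep the strand, so overlapping genes cannot be separated. The submitters' processing notes list the tools TopHat, Cufflinks and DESeq2. No version, genome build, annotation or counter is named in the sources used here. The deposited values are normalised signal per gene: read counts which the authors divided by a size factor per library. Every value was a whole multiple of 1 read in its library (100% of values, largest deviation 9.2e-05 reads, tolerance 0.01), so whole reads could be recovered, and depth was summed from them.

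Genes that reached 10 in 3 or more libraries were kept (15933; 4 removed). log2(value + 1) was fitted with limma 3.58.1 (R 4.3.3; trend and robust options) on all 15 libraries and 5 groups, with Benjamini-Hochberg adjustment over 15933 genes within each of 9 contrasts and a threshold of 0.05. Alternatives were edgeR 4.0.16 (quasi-likelihood) and DESeq2 1.42.0 on recovered reads, other scalings, pseudocounts of 0.5 and 5, filters, thinned reads, a heat shock covariate, a replicate block, the compared groups alone and each library left out. The fits were tested on simulated data. Same-numbered libraries did not deviate together (correlations -0.29 to 0.19), so numbers were not taken as pairs.

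znf1179 and znf1028 were to be named whatever their result. Other genes named from a comparison in the main results passed the threshold without overlap between groups. They averaged 20 or more in the group where they were higher. Up to 12 rises and 12 falls were named against wildtype at 2 dpf, and up to 4 and 4 elsewhere. Up to 2 just outside the threshold and up to 3 of each gene list were added. The closing observations also name calls beyond these limits, some with overlapping libraries. Others are named as relatives, by role or by position. Members, lists and roles were chosen with earlier results of these data known. Roles, known for 37 of 95 shorter members, come mostly from human proteins.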

Additional observations from a re-analysis of the deposited data

Results flagged for a closer look

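The change of znf1179 in double mutants was less than the sum of its changes in the single mutants, by -3.92 on the log2 scale (interaction adjusted p = 0.0035 by limma). The gene rose in tet2 mutants by 3.10, in tet3 mutants by 4.06 and in double mutants by 3.25. The value ranged from -4.21 to -3.70 over the other settings.

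znf804a differed between the groups that lack tet3: it was higher in double than in tet3 mutants by 4.44 on the log2 scale (adjusted p = 0.023 by limma), in 3 of 3 double mutant libraries against 3 tet3 libraries with 2 reads in all. The tet3 libraries at 0 are the shallow ones.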

How the results depend on the processing

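Counts of znf members called moved by over 1.5 times under these settings, and the cause was not tested except where fewer libraries entered. Numbers of genes in brackets are the calls over all genes in the same setting. Against wildtype at 2 dpf, tet2 mutants (2 in the reported fit, 16 genes) had 0 with the compared groups alone (0 genes). They had 1 on thinned reads (14 genes) and 1 with rows of a symbol summed (15 genes). tet3 mutants (12, 1159 genes) had 6 after quantile normalization (1130 genes), 30 with the compared groups alone (3912 genes) and 1 with the hsp70l covariate (21 genes). Double mutants (5, 1383 genes) had 1 with the covariate (159 genes) and 8 by DESeq2 (2093 genes). Wildtype at 1.5 dpf (18, 3317 genes) had 0 with the covariate (41 genes). Double against tet2 mutants (0, 709 genes) gave 1 after quantile normalization (835 genes), on thinned reads (677 genes) and by DESeq2 (1316 genes). Double against tet3 mutants (1, 372 genes) gave 0 with the compared groups alone (600 genes). It gave 2 with the covariate (513 genes) or thinned reads (320 genes), and 3 by DESeq2 (854 genes). Against wildtype at 1.5 dpf, tet3 mutants (14, 1579 genes) had 9 on thinned reads (1366 genes) and by edgeR (1361 genes). Double mutants (11, 2258 genes) had 2 with the compared groups alone (1150 genes) and 23 by DESeq2 (3183 genes). They had 6 with the covariate (1057 genes) or thinned reads (2057 genes). The interaction (1) had 0 with the deepest tet3 library.

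With the replicate number as a block, although the numbers do not pair the libraries, double mutants against wildtype at 1.5 dpf had 5 calls in place of 11 (2041 genes). Against wildtype at 2 dpf, tet3 mutants had 8 (984 genes) and wildtype at 1.5 dpf had 15 (3010 genes).

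Leaving out 1 library gave 1 to 2 calls in tet2 mutants (7 to 85 genes) and 3 to 6 in tet3 mutants (382 to 749 genes). It gave 3 to 9 in double mutants (688 to 1673 genes) and 8 to 21 at 1.5 dpf (1845 to 3316 genes). Between double and tet2 mutants there were 0 to 3 (377 to 1145 genes), and between double and tet3 mutants 0 to 2 (168 to 314 genes). Against 1.5 dpf there were 4 to 10 in tet3 mutants (794 to 1483 genes) and 2 to 13 in double mutants (1144 to 2522 genes). The interaction had 1 (14 to 141 genes). The 4-digit median ranged from 0.07 to 0.30 in tet2 mutants, -0.62 to -0.53 in tet3 mutants, -0.49 to -0.14 in double mutants and 0.03 to 0.23 at 1.5 dpf. The shorter median ranged from 0.02 to 0.25, -0.15 to -0.10, -0.16 to 0.14 and -0.20 to 0.02 in the same order, so its sign in double mutants and at 1.5 dpf depends on single libraries. After quantile normalization the 4-digit median was -0.44 in tet3 mutants and 0.57 at 1.5 dpf, and with the deepest tet3 library the shorter one was -0.17.

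Among values of single called members under these settings, 886 kept their direction and side of the threshold, 351 kept the direction alone and 3 changed sign. Those 3 were at 1.5 dpf with the covariate: znf148 at 0.25, znf217 at -0.72 and znf827 at 0.55. Depth limits the 4-digit members most, since 44 of 52 had a median under 100 reads.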

Other observations

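Several calls of znf members in mutants against wildtype at 1.5 dpf have not been described above. znf367 was lower in tet3 mutants, at 214, 261 and 191 normalised reads against 397, 341 and 455 (log2 change -0.84, adjusted p = 0.040 by limma), and higher in wildtype at 1.5 dpf than at 2 dpf. The 4-digit members znf1001 (-1.70), znf1041 (-3.31) and the row ENSDARG00000103827 of znf1144 (-3.58) were also lower in tet3 mutants than at 1.5 dpf, with adjusted p of 0.032 to 0.039, and each call held in 1 or 2 of 6 fits that left out a library. Summed over its 2 rows, znf1144 passed in tet3 mutants (-1.68, adjusted p = 0.011) and in double mutants (-1.32, adjusted p = 0.029) against wildtype at 1.5 dpf.

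In double mutants znf219 (1.62), znf609a (0.84) and znf710a (1.13) were higher than at 1.5 dpf and znf1007 (-1.06) was lower, with adjusted p of 0.028 to 0.043 by limma. The libraries of the 2 groups overlapped in znf219, znf710a and znf1007, and each of these 4 calls held in 1 or 2 of 6 fits. Just outside the threshold, znf1014 fell short in tet3 mutants against wildtype at 2 dpf (-0.82, adjusted p = 0.079).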
